A study of Mus musculus with 8 samples.

Results

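Lysine acetyltransferases, the zinc-dependent histone deacetylases, the NAD-dependent sirtuins and a small number of their scaffold and coactivator proteins were examined in round spermatids, the haploid germ cells that follow meiosis, of mice with and without the first bromodomain of Brdt. The 39 genes were listed by name, under current or earlier symbols, and each gene was represented by the brightest of the probe sets annotated to that gene alone, averaged across the 8 arrays. Of these, 38 were measured, among 18193 genes in all. No probe set carries Ncor1 in the annotation used here, so that corepressor was not analysed. The mutant animals carried the BrdtΔBD1 mutation, and the others were controls of the same 129 Sv/Ev strain, whose genotype is not described further in the labels. All were adults of 2 to 4 months. There were 4 mutant and 4 control arrays, and each array received RNA of gradient-purified round spermatids pooled from 7 animals, so that differences between single mice are not visible. No purity is given for the preparations in the labels.

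Acetyltransferases place acetyl groups on histone tails and other proteins, and deacetylases and sirtuins remove them. In spermatids the histones become hyperacetylated before transition proteins and protamines replace them, and Brdt is the testis-specific reader that binds acetylated histone H4 through its first bromodomain. The comparison therefore asks whether transcripts of the enzymes that write and erase the mark differ when one of its readers is damaged. Values are log2 intensities, on which a difference of 1 is a 2-fold difference, and the words rose and fell are kept for genes with a limma adjusted p under 0.05.

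Of the 38 genes, 1 fell and 0 rose. The one that fell was Hdac5, a class II deacetylase that represses transcription together with MEF2 factors. Among all genes tested, 1.85% fell and 1.86% rose, so the share of fallen genes in this group (2.63%) was close to the background. With array medians subtracted the calls over all genes were 374 higher and 820 lower, in place of 339 higher and 336 lower. Before adjustment, p was under 0.05 for 8 genes that were higher in mutant arrays (21.1%) and 3 that were lower (7.89%), beside 11.0% and 9.16% of all genes. With a mean of at least 4, these shares were 22.6% and 9.68% of 31 members, against 15.8% and 14.8% of all such genes. The arrays with the same replicate number deviated together, and a fit with the replicate number as a block called 3 higher genes (Hdac6, Sirt1 and Ep300) and 3 lower genes (Hdac5, Sirt4 and Ncoa1). In that fit 6.60% of all genes rose and 4.94% fell, against 7.89% of the group in each direction. Among genes with a mean of at least 4, 11.0% of all rose and 9.22% fell with the block, against 9.68% of members in each direction. The median log2 difference of the group was 0.03, against -0.02 over all genes, with 21 genes above 0 and 17 below. For 7 of the 38 the mean was under 4, at the dim end of these arrays. Without control arrays 1 and 3, whose RNA quality stood apart, 0 of the 38 passed and 68 of all genes did. That fit also has fewer arrays, and without any 1 array 199 to 1131 of all genes passed, against 675 with all 8. The part of RNA quality in the lower count was not tested.

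**Figure D1:**
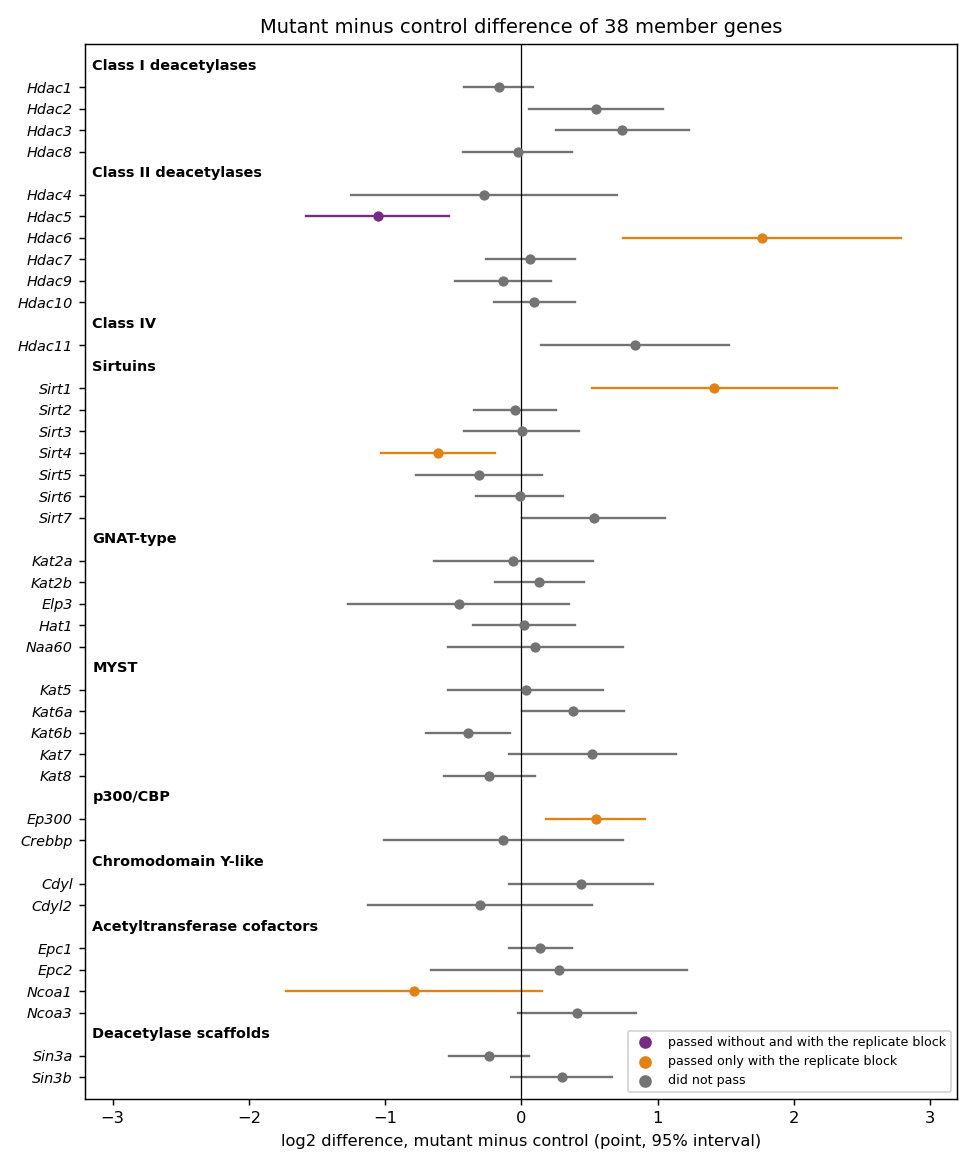
Log2 difference between mutant and control arrays for the 38 genes, grouped by role, with the 95% interval of the fit without a block (4 arrays per group). Hdac5 lies at -1.06 and Hdac6 at 1.76, while most other intervals include 0; purple marks a gene that passed without and with the block, orange one that passed only with it.

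The state of the cell preparations is given first, because it moves with the groups. All 13 round spermatid markers were bright, the dimmest being Catsper3 (11.07 in mutant arrays), and their list mean lay between 13.61 and 13.91 in the mutant and between 13.57 and 13.80 in the control. Sertoli cell markers were higher in the mutant: of 22, 21 had a difference above 0, 6 rose without the block and 14 rose with it. Their list mean spanned 5.77 to 7.41 in the mutant and 4.87 to 5.72 in the control. The 6 that rose without the block head the Sertoli list as drawn up, so the list may have been shaped by these data. Vim averaged 9.24 in mutant and 6.29 in control arrays, Fabp5 averaged 7.73 in mutant and 3.72 in control arrays, and Cldn11 averaged 5.89 in mutant and 4.17 in control arrays. For 8 of the 22 the mean was under 4, among them Amh, at 1.95 in mutant and 1.97 in control arrays, and Sox9, at 3.80 in both. Of 18 spermatogonial markers 1 rose without the block and 6 with it, with list means of 5.17 to 5.93 on mutant and 4.50 to 4.94 on control arrays. Of 22 spermatocyte markers 0 passed in limma without the block, where an unadjusted p under 0.05 was found for 7 higher and 2 lower ones, and with the block 4 rose and 1 fell. Their list means were 9.15 to 10.03 on mutant and 9.13 to 9.49 on control arrays. Of the Leydig list 2 of 11 rose and of the peritubular, vascular and blood list 1 of 19, without and with the block, and 1 Leydig marker fell with it. The 2 that rose were Aldh1a1 and Gsta2, while 6 of the 11 had a mean under 4, among them Star, Cyp11a1 and Cyp17a1. So had 16 of the 19. For Gapdh the control probe set at the 3' end exceeded the one at the 5' end, a sign of RNA degradation, by 1.68 and 2.05 on control arrays 1 and 3, against 0.46 to 0.48 on the other controls and 0.33 to 0.94 on mutant arrays. Control probe sets for 18S ribosomal RNA read 11.20 and 8.87 on control arrays 1 and 3 and 8.11 on mutant array 1, against 3.65 to 5.51 on the others. Brdt itself read 10.67 ± 0.33 in mutant and 12.08 ± 0.25 in control arrays (SD, n = 4 each), and where its probes lie relative to the deleted domain is not known here. In these pooled cells, fewer cells of a type and less RNA per cell cannot be told apart, and the part of these shifts in the results below was not tested.

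Among the deacetylases, Hdac5 gave the clearest difference. It read 9.50, 8.64, 9.29 and 9.51 on mutant arrays 1 to 4, against 10.40, 9.83, 10.60 and 10.34 on control arrays 1 to 4. Every mutant array lay below every control array. The fall was 2.08-fold, with a log2 difference of -1.06 (SE 0.23) and an adjusted p of 0.044, or 0.0079 with the replicate block. The difference was -0.89, -1.19, -1.31 and -0.83 within pairs 1 to 4. The call held without mutant array 2 or control array 2 and was lost without any other single array: the adjusted p was 0.062, 0.11 and 0.059 without mutant array 1, 3 or 4 and 0.11, 0.11 and 0.12 without control array 1, 3 or 4, and it was 0.28 at a difference of -0.85 without control arrays 1 and 3 together.

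Hdac6, the X-linked cytoplasmic enzyme that deacetylates tubulin, differed in the other direction. It read 8.29, 6.71, 8.16 and 7.61 on mutant arrays and 5.40, 5.21, 6.96 and 6.14 on control arrays. The groups overlapped through mutant array 2 and control array 3, but within each pair the mutant array was higher, by 2.89, 1.49, 1.20 and 1.47. At 3.40-fold this was the largest difference of the 38 (log2 difference 1.76, SE 0.45). Its adjusted p was 0.068 without the block and 0.017 with it. It passed in 1 of the 8 fits without 1 array, that without mutant array 2 (adjusted p = 0.022), and the adjusted p reached 0.17 in the others. The fit without mutant array 2 called 1131 of all genes, against 675 with all 8 arrays. Without control arrays 1 and 3 the Hdac6 difference was as large, at 2.02 (adjusted p = 0.17). Mutant array 2, the lowest of the mutant arrays for Hdac6, also had the lowest Sertoli list mean of the mutant arrays (5.77). Control array 3, the highest control for Hdac6, had the highest among controls (5.72). The order of the other arrays differed: Hdac6 was highest on mutant array 1, and the Sertoli list mean on mutant array 3 (7.41, against 7.09). Among controls, Hdac6 was lowest on array 2 and the Sertoli list mean on array 1 (4.87). Any link was not tested.

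**Figure D2:**
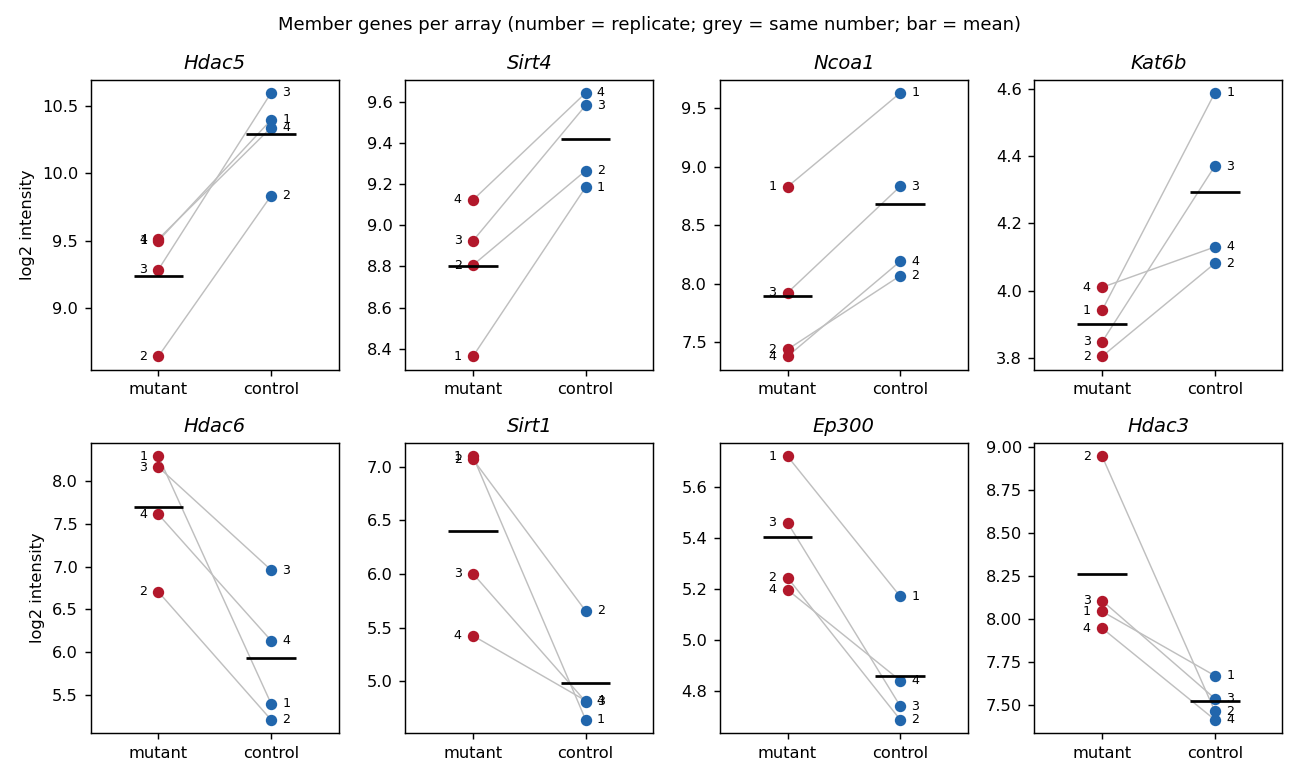
Log2 intensity per array of 8 genes, mutant on the left and control on the right, with the replicate number beside each point (red for mutant, blue for control), a grey line between arrays of the same number and a bar at the group mean. Hdac5, Sirt4 and Kat6b are lower without overlap, Ep300 and Hdac3 are higher without overlap, and Ncoa1, Hdac6 and Sirt1 overlap between groups while the 4 lines within each of their panels run the same way.

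The start regions of Hdac5 and Hdac6, 2 class II genes that lay on opposite sides of 0, are shown as RefSeq places them in GRCm38.p6, from 250 bases before to 50 bases after the start. Capitals mark the half-site of the cAMP response element, TGACG or its reverse complement CGTCA, the element that CREM binds in spermatids. Matches are letters in this window and not sites of binding.
Hdac5, chr11:102230123-102230422, minus strand: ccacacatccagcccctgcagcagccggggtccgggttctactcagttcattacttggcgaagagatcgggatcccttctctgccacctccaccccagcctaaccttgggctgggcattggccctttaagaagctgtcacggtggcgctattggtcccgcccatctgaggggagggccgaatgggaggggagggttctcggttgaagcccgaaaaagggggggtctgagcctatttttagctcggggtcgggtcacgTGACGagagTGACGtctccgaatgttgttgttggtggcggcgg
Hdac6, chrX:7947840-7948139, minus strand: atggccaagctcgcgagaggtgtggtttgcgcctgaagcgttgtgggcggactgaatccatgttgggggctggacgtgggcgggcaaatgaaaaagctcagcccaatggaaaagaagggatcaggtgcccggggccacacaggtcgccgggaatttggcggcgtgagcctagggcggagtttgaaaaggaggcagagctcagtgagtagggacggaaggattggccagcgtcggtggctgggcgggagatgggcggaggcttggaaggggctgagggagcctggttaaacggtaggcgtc
The Hdac5 window holds 2 half-sites, both on the gene's strand and downstream of the start, and 1 GC box (GGGCGG or CCGCCC). The Hdac6 window holds 0 half-sites and 5 GC boxes. Over all 32851 start regions in the same table, 20.8% hold a half-site, 1.79% the full element TGACGTCA and 35.7% a GC box. Start regions were listed for 31 of the 39 genes. Among these, 14 genes had a half-site in at least 1 region, 0 had the full element and 25 had a GC box. These counts are per gene, over any of its regions, while the shares above are per start region. The 2 kinds of figure cannot be compared directly, since some genes have several regions.

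The class I deacetylases Hdac1 and Hdac2 are the catalytic subunits of the SIN3, NuRD and CoREST complexes, and Hdac3 is that of the NCoR complex. Hdac3 read 8.04, 8.95, 8.11 and 7.95 on mutant arrays and 7.67, 7.46, 7.54 and 7.41 on control arrays. The groups did not overlap, with mutant array 2 far above the others. Its log2 difference was 0.74 (SE 0.21, adjusted p = 0.097, and 0.062 with the block). The gene passed in 1 of the 8 fits without 1 array, that without mutant array 2 (adjusted p = 0.043). In the others its adjusted p reached 0.22. Hdac2 read 9.74, 9.14, 9.24 and 8.76 on mutant arrays and 8.77, 8.38, 8.99 and 8.55 on control arrays, a difference of 0.55 (SE 0.22, adjusted p = 0.20). The mutant array was the higher one in all 4 pairs, and a further Hdac2 probe set gave 0.34 (SE 0.16). Hdac1 averaged 11.73 ± 0.13 in mutant and 11.89 ± 0.11 in control arrays (SD, n = 4 each), with a 95% interval of the difference from -0.42 to 0.09. Hdac8, also X-linked, was dim at 2.97 and 2.99.

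Of the other class II genes, Hdac4 had a log2 difference of -0.28 (SE 0.43), whose sign turned without control arrays 1 and 3 (0.31). Hdac7, Hdac9 and Hdac10 were dim in both groups, with means between 2.66 and 3.23, so their differences rest on dim values. Hdac11, the single class IV enzyme, which removes long-chain acyl groups, read 11.30, 9.82, 10.64 and 10.83 on mutant arrays and 10.27, 9.79, 9.46 and 9.73 on control arrays. Mutant arrays 1, 3 and 4 were above all controls and mutant array 2 was level with its pair (0.03). The difference was 0.83 (SE 0.30, adjusted p = 0.17, and 0.052 with the block), and 0.91 (SE 0.41) in its second probe set. Hdac11 passed in 1 of the 8 fits without 1 array, that without mutant array 2 (adjusted p = 0.028). In the others its adjusted p reached 0.32.

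Sirtuins use NAD to remove acyl groups, and their members sit in different compartments. The nuclear deacetylase Sirt1 read 7.098, 7.070, 6.004 and 5.426 on mutant arrays and 4.64, 5.66, 4.81 and 4.82 on control arrays. Mutant arrays 1 and 2 were the highest, and the groups overlapped through mutant array 4 and control array 2. The difference was 1.42 (SE 0.40), or 2.67-fold, with an adjusted p of 0.088 without the block and 0.029 with it. Sirt1 passed in 1 of the 8 fits without 1 array, that without mutant array 4 (adjusted p = 0.043). In the others its adjusted p reached 0.20. The same mutant arrays 1 and 2 had the highest spermatocyte list means (9.98 and 10.03). Among controls the order differed: control array 1 had the highest spermatocyte list mean (9.49) and the lowest Sirt1 reading. Any link was not tested. Without control arrays 1 and 3 the difference was 1.16 (adjusted p = 0.39).

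Sirt4, a mitochondrial sirtuin that acts on glutamate dehydrogenase and lipoylated enzymes, lay lower in the mutant. It read 8.36, 8.81, 8.92 and 9.12 on mutant arrays and 9.19, 9.27, 9.58 and 9.64 on control arrays, with no overlap. The log2 difference was -0.61 (SE 0.18), with an adjusted p of 0.11 without the block and 0.022 with it. The difference stayed between -0.72 and -0.47 whichever single array was left out. The start regions of Sirt1 and Sirt4, which differed in opposite directions, are given in the same form.
Sirt1, chr10:63338986-63339285, minus strand: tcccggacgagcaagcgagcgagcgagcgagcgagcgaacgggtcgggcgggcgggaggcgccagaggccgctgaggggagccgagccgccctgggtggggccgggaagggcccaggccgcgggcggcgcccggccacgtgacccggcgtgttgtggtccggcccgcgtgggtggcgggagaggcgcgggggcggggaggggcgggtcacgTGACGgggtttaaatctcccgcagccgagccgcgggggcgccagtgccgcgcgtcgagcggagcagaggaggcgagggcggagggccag
Sirt4, chr5:115484248-115484547, minus strand: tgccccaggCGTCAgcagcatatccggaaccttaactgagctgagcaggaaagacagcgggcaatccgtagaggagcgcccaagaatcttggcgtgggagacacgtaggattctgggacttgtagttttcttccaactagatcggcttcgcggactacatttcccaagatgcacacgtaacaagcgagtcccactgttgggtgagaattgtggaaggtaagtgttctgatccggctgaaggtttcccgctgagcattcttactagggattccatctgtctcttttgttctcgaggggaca
The Sirt1 window holds 1 half-site and 7 GC boxes, and the Sirt4 window holds 1 half-site and 0 GC boxes.

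The remaining sirtuins showed no called difference in the fits without and with the block. Sirt2, which deacetylates tubulin in the cytoplasm, read 12.23 ± 0.14 in mutant and 12.27 ± 0.20 in control arrays (SD, n = 4 each), with a 95% interval of the difference from -0.34 to 0.26. Sirt3, the main mitochondrial deacetylase, read 10.29 in mutant and 10.28 in control arrays, with an interval from -0.42 to 0.43. Sirt7, a nucleolar sirtuin, was higher in all 4 pairs (0.53, SE 0.23, adjusted p = 0.24) at a low level of 3.94 against 3.41. Sirt5, a desuccinylase of mitochondria, and the chromatin enzyme Sirt6 were dim, with means of 3.27 and 2.32 in mutant and 3.58 and 2.33 in control arrays.

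**Figure D3:**
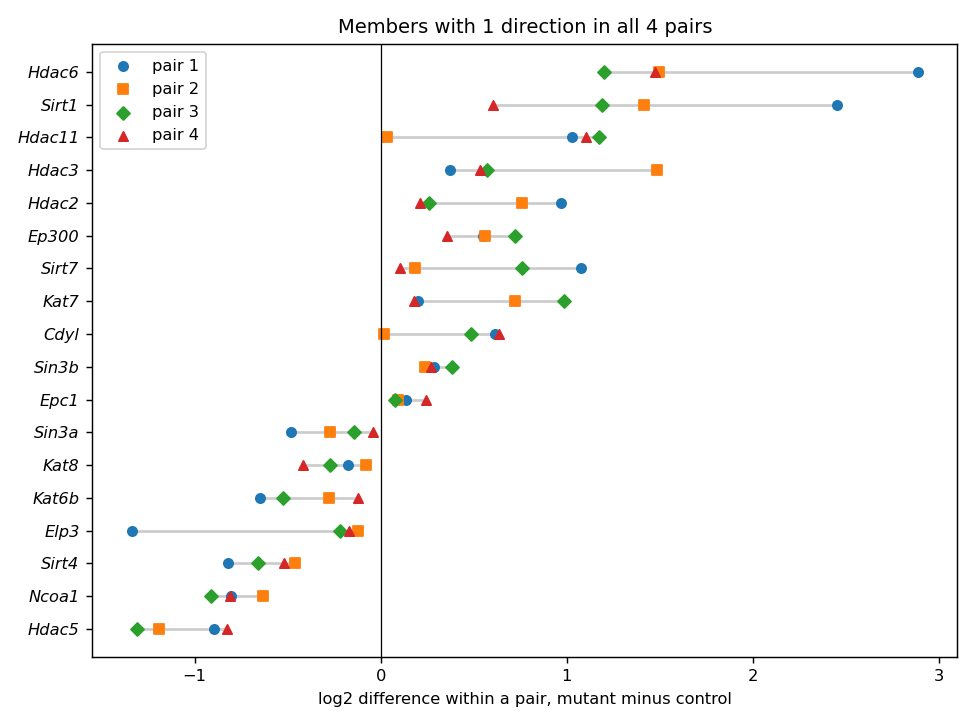
Log2 difference within each pair of arrays with the same replicate number, for the 18 genes that had 1 direction in all 4 pairs. Ncoa1 and Sin3b have narrow ranges, while Hdac6 (1.20 to 2.89) and Sirt1 (0.61 to 2.45) are led by pair 1.

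Within pairs, 11 of the 38 genes had the mutant above the control in each of the 4 pairs (28.9%, against 17.7% of all genes) and 7 had it below in each (18.4%, against 18.9%). Groups without overlap were found for 2 higher genes (5.26%, against 6.15% of all genes) and 3 lower ones (7.89%, against 6.49%). The lower shares were thus near those of all genes, and the larger share of genes higher within pairs was not tested. Of the 38 genes 7 had a mean under 4, against 9195 of all 18193. These shares were not computed among genes with a mean of at least 4.

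Of the acetyltransferases, Ep300, a coactivator enzyme that acetylates histones at enhancers, was the one enzyme of the GNAT, MYST and Ep300/Crebbp groups that passed in the blocked fit. It read 5.72, 5.25, 5.46 and 5.20 on mutant arrays and 5.17, 4.69, 4.74 and 4.84 on control arrays. The lowest mutant array stood just above the highest control array. The difference was 0.55 (SE 0.16), or 1.46-fold, with an adjusted p of 0.099 without the block and 0.028 with it, and was 0.64 without control arrays 1 and 3 (adjusted p = 0.22). Its close relative Crebbp gave -0.13 (SE 0.39) in its brightest probe set, with mutant array 2 at 7.23 and the other mutant arrays between 8.54 and 9.30, and -0.74 (SE 0.84) in a second one.

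The MYST enzymes comprise Kat5 of the NuA4 complex, Kat6a and Kat6b, Kat7, and Kat8 of the MSL and NSL complexes, which acetylates histone H4. Kat7 was higher in all 4 pairs (0.52, SE 0.27, adjusted p = 0.33). Kat8, at 11.01 ± 0.20 in mutant and 11.25 ± 0.20 in control arrays (SD, n = 4 each), was lower in all 4 pairs (-0.24, SE 0.15, adjusted p = 0.42). Kat6b read 3.94, 3.80, 3.85 and 4.01 on mutant arrays and 4.59, 4.08, 4.37 and 4.13 on control arrays. These groups did not overlap (log2 difference -0.39, SE 0.14, adjusted p = 0.15, and 0.099 with the block), but a second Kat6b probe set of about the same level gave 0.25 (SE 0.17), and the mean of all its probe sets differed by -0.02. Kat6a had a difference of 0.38 (SE 0.17, adjusted p = 0.24). For Kat5 the difference was 0.03 (SE 0.25), with a second probe set at -0.40 (SE 0.25).

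The GNAT-type enzymes gave no call, the lowest adjusted p being 0.54. Kat2a and Kat2b are the acetyltransferases of SAGA and ATAC, and their differences were -0.06 (SE 0.26) and 0.13 (SE 0.14). A second probe set had the other sign in each, at 0.24 (SE 0.22) for Kat2a and -0.26 (SE 0.21) for Kat2b. Hat1, which acetylates newly made histone H4, read 10.45 ± 0.30 in mutant and 10.43 ± 0.15 in control arrays (SD, n = 4 each), with a 95% interval from -0.35 to 0.39. Elp3, the catalytic subunit of Elongator, was lower in all 4 pairs (-0.46, SE 0.36, adjusted p = 0.54), but control array 1 alone stood at 9.27 and the other controls between 7.39 and 8.16. Without control arrays 1 and 3 its difference was -0.02. Naa60, an N-terminal acetyltransferase of the Golgi, differed by 0.10 (SE 0.28).

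Cdyl and Cdyl2 carry a chromodomain and a fold of the crotonase family, and Cdyl acts in spermatids as a crotonyl-CoA hydratase that lowers histone crotonylation. Cdyl read 12.80, 11.69, 12.18 and 12.41 on mutant arrays and 12.19, 11.67, 11.69 and 11.77 on control arrays. It was higher in all 4 pairs, though by only 0.02 in pair 2, and its difference of 0.44 (SE 0.23) had an adjusted p of 0.34, and 0.094 with the block. Its 2 other, dimmer probe sets gave 0.74 (SE 0.33) and 0.77 (SE 0.21). Cdyl2 had a difference of -0.31 (SE 0.36), and on mutant array 4 it read 5.09 where the other mutant arrays read 4.16 to 4.22.

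Of the cofactors, Ncoa1, a nuclear receptor coactivator, had the narrowest pair differences for its size. It read 8.83, 7.44, 7.92 and 7.38 on mutant arrays and 9.63, 8.07, 8.83 and 8.19 on control arrays. The groups overlapped through mutant array 1, while mutant arrays 2 to 4 lay below all controls. Within pairs the mutant array was lower by 0.80, 0.63, 0.91 and 0.81. The difference of -0.79 therefore had an SE of 0.41 without the block (adjusted p = 0.33) and of 0.10 with it (adjusted p = 0.010). It was -0.24 without control arrays 1 and 3 (adjusted p = 0.83), and a second Ncoa1 probe set gave -0.09 (SE 0.16). Ncoa3, a further member of that family, differed by 0.41 (SE 0.19, adjusted p = 0.28). The NuA4 scaffold genes Epc1 and Epc2 differed by 0.14 (SE 0.10) and 0.28 (SE 0.41). Sin3a and Sin3b, the scaffolds that carry Hdac1 and Hdac2, lay on opposite sides of 0 within every pair: Sin3a had -0.23 (SE 0.13, adjusted p = 0.36) and Sin3b 0.29 (SE 0.16, adjusted p = 0.37). A further Sin3a probe set gave -0.89 (SE 0.43, limma adjusted p = 0.38 over all probe sets, and 0.041 with the block), also lower in all 4 pairs, and the remaining one -0.17 (SE 0.25). Whether the differences of Sin3a and Sin3b differ from each other was not tested.

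**Figure D4:**
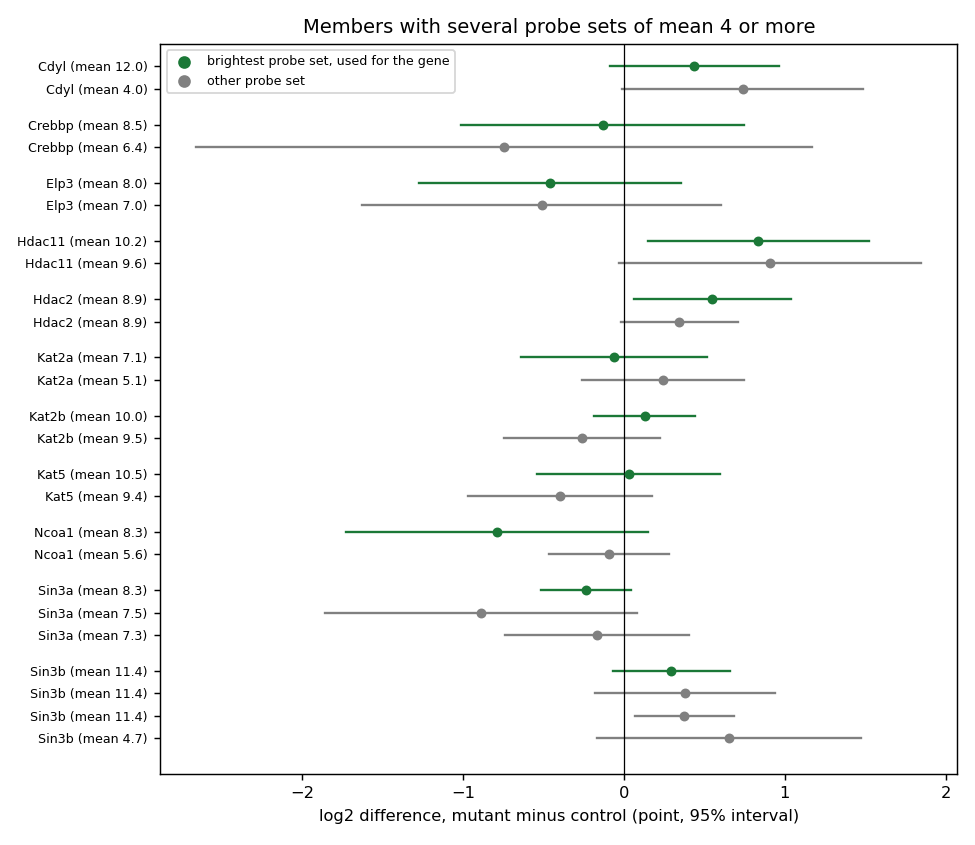
Log2 difference and 95% interval of each probe set with a mean of at least 4, for the 11 genes with more than 1 such probe set. The probe sets of Hdac2, Hdac11, Elp3, Crebbp, Cdyl, Ncoa1, Sin3a and Sin3b lie on the same side of 0, while those of Kat2a, Kat2b and Kat5 lie on both sides.

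Several probe sets of mean 4 or more were available for 11 of the genes, which shows where the brightest does not stand for the others. None of the 11 passed the test of a difference between probe sets (diffSplice, F test per gene), also 0 at an unadjusted p under 0.05. Of all 2870 genes tested in this way, 0.906% passed. With the block 1 of the 11, Ncoa1, passed, as did 5.89% of all genes tested. The other 3 Sin3b probe sets gave 0.38, 0.37 and 0.65, beside 0.29 for the brightest.

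The partner subunits and the enzymes that supply acetyl-CoA and NAD were read next, from lists that name no member. Of 98 measured partner genes 2 fell and 0 rose, and an unadjusted p under 0.05 was found for 23 higher and 16 lower ones (limma). These shares were 2.04% fallen, 23.5% higher and 16.3% lower, against 1.85%, 11.0% and 9.16% of all genes. However, 17 of the 98 had a mean under 4, against 9195 of all 18193 genes. Of all genes with a mean of at least 4, 3.45% fell, 15.8% were higher and 14.8% lower by the same limits. The 2 that fell belong to acetyltransferase complexes. Taf6l, a TAF6-like histone-fold subunit of SAGA, read 5.94, 6.57, 6.72 and 6.70 on mutant arrays and 7.94, 7.73, 8.42 and 8.14 on control arrays (2.98-fold lower, adjusted p = 0.0074). Msl2, the ubiquitin ligase subunit of the Kat8-containing MSL complex, read 7.98, 7.45, 7.71 and 7.49 on mutant arrays and 8.95, 8.44, 9.06 and 9.02 on control arrays (2.31-fold lower, adjusted p = 0.011). Neither gene overlapped between groups, and both passed in each of the 8 fits without 1 array. Without control arrays 1 and 3 their adjusted p was 0.10 and 0.15, and with the mean of all probe sets Msl2 differed by -0.27 (adjusted p = 0.22).

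**Figure D5:**
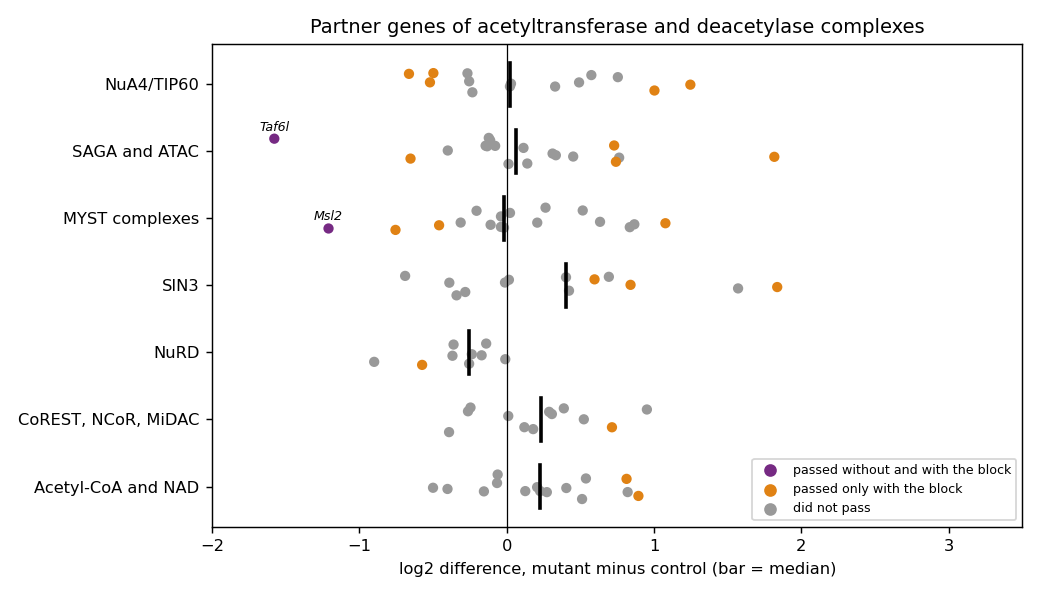
Log2 difference of the 98 partner genes by complex or pathway, with a bar at each list's median; purple, orange and grey mark genes that passed in both fits, only with the block, or in neither. Taf6l (-1.58) and Msl2 (-1.21) passed in the fits without and with the block, and the 9 genes of the NuRD list, which leaves out Rbbp4 and Rbbp7 (shown under SIN3), lie below 0.

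With the replicate block 12 partner genes rose (12.2%) and 9 fell (9.18%), against 6.60% and 4.94% of all genes, or 11.0% and 9.22% of those with a mean of at least 4. The genes named here from that fit were picked after their values were seen. In the SAGA list the deubiquitinase Usp22 read 7.05, 5.08, 6.90 and 6.04 on mutant arrays and 4.80, 3.68, 4.88 and 4.44 on control arrays (3.52-fold higher, adjusted p = 0.061, and 0.0050 with the block), while Taf5l fell with Taf6l in the blocked fit (-0.65, adjusted p = 0.049). In the SIN3 list the histone-binding proteins Rbbp7 (1.84, adjusted p = 0.018 with the block) and Rbbp4 (0.60, 0.026 with the block) rose, and the list's median of 13 genes was 0.40. Of these 13, 8 had a difference above 0 and 5 one below, down to -0.69 for Brms1. Without the block an unadjusted limma p under 0.05 was found for 5 higher and 3 lower ones. In the NuA4 list Mrgbp and Trrap (1.25) rose with the block and Actl6a (-0.50), Ruvbl1 (-0.66) and Vps72 (-0.52) fell. The NuRD list holds 9 genes and leaves out the subunits that NuRD shares with SIN3. Among these, Rbbp4, Rbbp7 and Hdac2 had differences above 0 and Hdac1 one below 0 (-0.17). The 9 listed genes had differences from -0.90 for Mbd2 to -0.01 for Chd3, with a median of -0.26, where 53.7% of all genes lay below 0. Of the 9, Mta1 fell with the block (-0.57, limma adjusted p = 0.047). Neither the list's direction nor its dependence on these assignments was tested. Of 15 genes of acetyl-CoA and NAD supply, the citrate lyase Acly (0.89, adjusted p = 0.024) and the NAD kinase Nadk (0.81, adjusted p = 0.034) rose with the block.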

How the data were processed

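Round spermatids were separated on a bovine serum albumin gradient of 4% to 2%, and 2 µg of total RNA per array was labelled, per the labels' protocols. The authors deposited log2 intensities per probe set. GCRMA and limma are named in the submitters' processing notes, without versions or roles, and no scanner files were used here. Differences of dim probe sets may be shrunken by the background correction behind the deposited values. Groups and replicate numbers came from the titles. Of 45101 probe sets, 64 controls were left out. The platform annotation gives 1 gene to 34945 of the rest, several to 932 and none to 9160, and 34741 of the first were updated by Entrez identifier through the GRCm38.p6 gene table. The brightest probe set stood for each of 18193 genes.

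Mutant and control arrays entered a two-sided linear model in limma 3.58.1 (R 4.3.3) with group as the only term and Benjamini-Hochberg adjustment over all genes. Tests on simulated data came first. Same-numbered arrays correlated in their deviations from the group means with r of 0.36, 0.42, 0.50 and 0.41, so the fit with the replicate number as a block is given where it changes a call of a member, partner or marker list. Nothing says that pools of 1 number share animals, and p-values measure the spread between pools. The number of arrays limits the precision. The 39 genes, role groups and partner lists were chosen with earlier results of these data known. The marker lists may have been too, and counts over all these lists are descriptive. Genes get their values per array when past the threshold in either fit or without overlap, otherwise up to 3 of a role group are named. Values per array of Hdac2, Hdac11 and Cdyl, and further names, were added after their values were seen.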

Additional observations from a re-analysis of the deposited data

Results flagged for a closer look

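Among the 76 groups of 4 arrays (38 genes in 2 groups), 6 held an array that stood far from the other 3, where chance marks about 1 in 20. Hdac1 read 11.53 on mutant array 1, below 11.78 to 11.80 on the other mutant arrays. Hdac3 read 8.95 on mutant array 2, where the next mutant array read 8.11. Cdyl2 read 5.09 on mutant array 4, above 4.22. Among control arrays, Hdac7 read 2.57 on array 3, below 2.83, Crebbp read 8.21 on array 2, below 8.67, and Sin3a read 8.71 on array 1, above 8.37.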

How the results depend on the processing

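Each of the 38 genes was recomputed under up to 17 alternatives, and 23 kept their sign in all of them, among these Hdac5, Hdac6, Hdac3, Hdac11, Sirt1, Sirt4, Ep300 and Ncoa1. Counts of called genes moved more. Of all genes 675 were called (339 higher, 336 lower), against 2100 with the replicate block, 428 when adjusted over probe sets, 1109 with quantile normalization added, 1194 (374 higher, 820 lower) with array medians subtracted, 68 without control arrays 1 and 3, and 199 to 1131 without 1 array. The median subtraction gave a median of all genes of -0.17, against -0.02 in the deposited values. Of the 38 genes 1 was called, against 6 with the replicate block, 2 (Hdac5 and Hdac6) with a minimum mean of 4 or 5, with medians subtracted or with trend and robust variance, 2 (Hdac5 and Kat6b) with quantile normalization, 0 over probe sets or without control arrays 1 and 3, and 0 to 4 without 1 array, the highest without mutant array 2. Of the partner genes 2 were called, against 21 with the block, 1 (Mbd2) without control arrays 1 and 3, 4 with the mean of all probe sets, 11 with medians subtracted, 8 with quantile normalization, 4 with trend and robust variance, and 2 to 10 without 1 array. With the block 1 of 11 genes had a difference between probe sets (169 of all 2870 genes tested), against 0 without it (26 of all). In that test between probe sets the block changed no other call among the 11 genes. The causes were not tested.

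Signs turned in 15 of the 38 genes, the widest of these in the deposited values being Cdyl2 (-0.31) and Hdac4 (-0.28). With medians subtracted the difference was -0.082 for Hdac7, -0.052 for Hdac10, -0.15 for Sirt3, -0.017 for Kat2b, -0.13 for Hat1, -0.045 for Naa60, -0.12 for Kat5 and -0.0088 for Epc1, all above the median of all genes there. Without control arrays 1 and 3 it was 0.31 for Hdac4, 0.062 for Sirt6, 0.42 for Kat2a and -0.20 for Kat5. With quantile normalization it was 0.020 for Sirt6 and -0.090 for Naa60. With the mean of all probe sets it was 0.080 for Kat2a, -0.064 for Kat2b and -0.18 for Kat5. Without 1 array the range was -0.16 to 0.13 for Hdac8, -0.55 to 0.12 for Hdac4, -0.044 to 0.15 for Hdac7, -0.013 to 0.15 for Hdac10, -0.13 to 0.016 for Sirt2, -0.12 to 0.19 for Sirt3, -0.073 to 0.087 for Sirt6, -0.28 to 0.14 for Kat2a, -0.11 to 0.13 for Hat1, -0.14 to 0.30 for Naa60, -0.17 to 0.15 for Kat5, -0.41 to 0.28 for Crebbp and -0.54 to 0.016 for Cdyl2. Of the 38 genes 7 had a mean under 4, and depth of signal limits what their small differences show.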
